A study of Mus musculus with 80 samples.

Results

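The 7 cDNA clones named Col1a2, Col2a1 or Sparc on a pair of spotted filters were followed through postnatal growth and adult life of mouse skeletal muscle. They are all the clones with 1 of these gene symbols in the platform annotation, 7 of 16896 clones. Col1a2 had 2 clones (9008 and 15060, both on filter B), Col2a1 had 1 (4055, filter A), and Sparc had 4 (2977, 4342 and 6518 on filter A, 14923 on filter B). The genes were selected on the scores of these same mice, chosen by the difference between 169-194 d and 17-44 d, in which a clone of each was among the lowest. The values of that contrast are therefore given as a description, with no test.

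Muscle came from 40 C57BL/6 mice, 20 female and 20 male, kept on regular feed, ad libitum, with no other treatment in the labels. There were 5 mice of 17-21 d (3 female, 2 male), 5 of 33-44 d (2 female, 3 male) and 10 each of 169-194 d, 476-499 d and 704-743 d (5 of each sex). Total RNA of each mouse was labelled with 33P and hybridised once to each of the 2 filters, mouse17K-A and mouse17K-B, giving 80 arrays. For 1 male of 714 d the description field names another animal, a male of 43 d, on both filters; its title and characteristics give 714 d and were followed. Which muscle was sampled is not given in the sources used here. Each value is a score standardised within its array to a mean of 0 and an SD of 1 over the 8448 clones of the filter. Differences are therefore in SDs of the array (array SD), no fold change can be given, and a clone's score places it relative to the other clones of the same array.

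Fibrillar collagens are the rope-like proteins that give connective tissue its strength, and they are made in bulk while a muscle and its connective tissue sheaths grow. Col1a2 encodes the second chain of type I collagen, the main fibrillar collagen of tendon, bone and muscle connective tissue. Col2a1 encodes type II collagen, the fibrillar collagen of cartilage. Sparc, also called osteonectin, encodes a secreted glycoprotein that binds collagen and calcium and takes part in matrix assembly.

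In the RefSeq annotation of GRCm38.p6, Col1a2 lies on chromosome 6 from 4505618 to 4541543, Col2a1 on chromosome 15 from 97975602 to 98004724, and Sparc on chromosome 11 from 55394159 to 55420080. The sequences of the spotted clones were not used here, so where in each transcript a clone lies is not known. Whether each clone matches its gene symbol was not checked either, which bears on every comparison between clones of 1 gene. Of the 3 genes, 2 had an entry in the RefSeq promoter table, and the 250 bases before their start sites are shown because a clone of each gene moved with the other across the young mice. Capitals mark a TATA box, a CCAAT box or a GC box, searched on both strands, and the matches do not overlap.
Col1a2, chr6:4505368-4505617, plus strand: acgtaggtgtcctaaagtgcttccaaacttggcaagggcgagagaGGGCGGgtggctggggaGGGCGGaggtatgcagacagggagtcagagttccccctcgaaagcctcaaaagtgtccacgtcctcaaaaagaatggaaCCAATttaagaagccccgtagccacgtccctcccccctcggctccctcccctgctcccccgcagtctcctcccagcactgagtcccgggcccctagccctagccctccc
Sparc, chr11:55420081-55420330, minus strand: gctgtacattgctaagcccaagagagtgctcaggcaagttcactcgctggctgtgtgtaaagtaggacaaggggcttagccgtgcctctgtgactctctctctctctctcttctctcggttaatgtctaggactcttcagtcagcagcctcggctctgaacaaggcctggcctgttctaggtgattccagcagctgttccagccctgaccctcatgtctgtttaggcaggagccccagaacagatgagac
The Col1a2 stretch held 1 CCAAT box, which begins 109 bases before the start, and 2 GC boxes, which begin 205 and 188 bases before it. The Sparc stretch held 0 of the motifs. Among 32851 promoters of the same length, 12.4% held the TATA box (the letters TATAAA), 33.8% the CCAAT box (the letters of its name) and 32.7% the GC box on either strand. The GC box was searched by the letters GGGCGG, and nothing about the regulation of either gene is read from these letters.

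No value was missing and no array was a copy of another. Pairs of arrays had median correlations of 0.971 (filter A) and 0.976 (filter B), and a typical clone had an SD of 0.139 and 0.122 array SD between mice of a class. The first principal component held 43.6% and 36.6% of the variance of these filters, and its scores followed each other over the 40 mice (r = 0.962), so each filter gives a measure of it that is separate from the clones of the other. The labelled tissue was checked against 14 muscle fibre genes, of which 2 were measured, Mylpf (a fast myosin light chain) and Actn3 (a fast-fibre actinin), at the 88.3 and 88.4 percentile of their filters. The layout of spots on the filters was inferred from the data: residuals of clones 22 numbers apart correlated at a mean r of 0.472 (filter A) and 0.473 (filter B), and those 528 apart at 0.452 and 0.436, against a median of 0.0493 and 0.0549 over all distances examined.

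Among the 7 clones, Col1a2 clone 15060, Col2a1 clone 4055 and Sparc clone 6518 stood highest at 17-21 d, intermediate at 33-44 d and lowest in the mice from 169 d on. Of the other 4 clones of Col1a2 and Sparc, Sparc clone 4342 took the same course on a smaller scale. Its class means were -0.428 at 17-21 d, -0.598 at 33-44 d, and -0.655, -0.659 and -0.635 in the adult classes. The rest did not share this course. The scores of all 4 moved by 0.233 array SD or less, in either direction, between 17-21 d and 169-194 d.

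**Figure D1:**
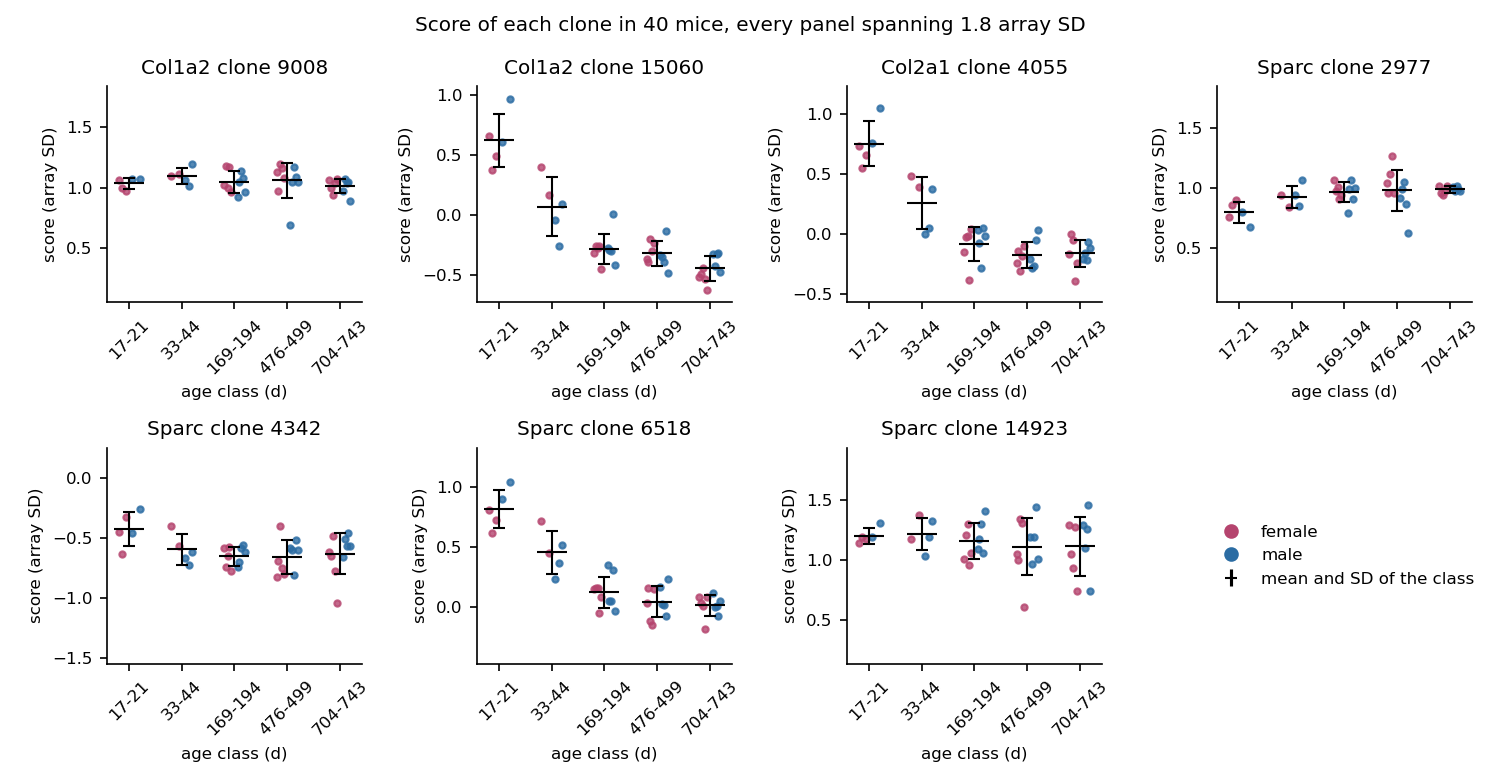
Score of each of the 7 clones (array SD) in each of the 40 mice by age class (d), females in red and males in blue, with the mean and SD of the class in black; every panel spans the same height. Col1a2 15060, Col2a1 4055 and Sparc 6518 have means of 0.622, 0.750 and 0.820 at 17-21 d. They step down to -0.281, -0.084 and 0.124 at 169-194 d. Sparc 4342 steps down less, from -0.428 to -0.655, and Sparc 2977 goes the other way, from 0.800 to 0.967. The remaining panels stay nearly level.

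Col1a2 clone 15060 scored 0.66 and 0.38 in the females of 17 and 19 d, 0.49 in the female of 21 d, 0.61 in the male of 19 d and 0.97 in the male of 17 d. At 33-44 d it scored 0.17 in the female of 33 d, 0.40 in the female of 40 d, and 0.09, -0.04 and -0.26 in the males of 40, 43 and 44 d. All but 1 of the older group lay below the whole younger group, the female of 40 d overlapping the female of 19 d. The class means were 0.622 ± 0.223 (SD, n = 5) and 0.072 ± 0.245 (SD, n = 5).

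The clone fell by 0.557 ± 0.0921 array SD between these classes (SE, limma, adjusted p = 0.0078), with all 5 older mice below the mean of the younger ones. This comparison was made in a fit of all 40 mice and was adjusted over all 16896 clones. It called 6 clones, 0.0355% of those tested, all of them lower at 33-44 d, and 3845 clones (22.8%) had an unadjusted p under 0.05. Without 1 mouse the count of 6 ran from 1 (without the female of 17 d or the male of 19 d) to 9 (without the female of 40 d). The 10 young mice are among those whose mean chose the clone, although the difference inside them was not the contrast used.

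From 169 d on the clone stayed low. It ran from -0.45 to 0.01 with a median of -0.280 at 169-194 d, from -0.48 to -0.13 with a median of -0.340 at 476-499 d, and from -0.62 to -0.31 with a median of -0.455 at 704-743 d. These classes overlap each other, and the whole of each lies below every mouse of 17-21 d. The mean percentile of the clone within its filter went from 72.8 at 17-21 d through 54.0 at 33-44 d to 40.7, 39.3 and 33.5 in the adult classes.

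Col2a1 clone 4055 scored 0.73, 0.55 and 0.66 in the females of 17, 19 and 21 d, 0.76 in the male of 19 d and 1.05 in the male of 17 d. At 33-44 d it scored 0.39 and 0.48 in the females of 33 and 40 d, and 0.37, 0.00 and 0.05 in the males of 40, 43 and 44 d. The 2 groups did not overlap. The class means were 0.750 ± 0.186 (SD, n = 5) and 0.258 ± 0.217 (SD, n = 5). The clone fell by 0.496 ± 0.0922 array SD between these classes (SE, limma, adjusted p = 0.0220). These young mice are among those whose mean chose the clone, although the difference inside them was not the contrast used. The adjusted p is therefore not that of a clone chosen on other mice.

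In the adult classes Col2a1 ranged from -0.38 to 0.05 (median -0.025) at 169-194 d, from -0.31 to 0.03 (median -0.195) at 476-499 d, and from -0.39 to 0.00 (median -0.165) at 704-743 d. The adult classes overlap almost wholly, and at the mean percentiles of 51.5, 48.2 and 48.0 the clone stood near the middle of its filter, against 75.8 at 17-21 d.

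Sparc clone 6518 scored 0.81, 0.62 and 0.73 in the females of 17, 19 and 21 d, 0.90 in the male of 19 d and 1.04 in the male of 17 d. At 33-44 d it scored 0.45 and 0.72 in the females of 33 and 40 d, and 0.52, 0.24 and 0.37 in the males of 40, 43 and 44 d. The order of the mice resembles that of both collagen clones, with the male of 17 d highest and the female of 40 d highest in its class in all 3. The difference of -0.367 ± 0.0842 array SD (SE, limma) had an adjusted p of 0.164 and did not pass, although all 5 older mice lay below the mean of the younger ones. The male of 17 d and the female of 40 d share a stretch of list numbers in the titles. Each was the only mouse of its class in that stretch. For the falling Col1a2 clone the highest mouse of every adult class was from that stretch too. For Col2a1 this held only at 169-194 d, and for Sparc clone 6518 in no adult class. A block for the stretches changed no member's call, and the part of the stretch in this order was not tested.

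In the adult classes Sparc clone 6518 ranged from -0.05 to 0.35 (median 0.120), from -0.15 to 0.24 (median 0.035) and from -0.18 to 0.12 (median 0.025), in order of age. These ranges overlap each other and lie wholly below the mice of 17-21 d.

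The calls within the young mice rest on few animals and on the shared fit. The same mice also entered the choice of Col1a2 clone 15060, Col2a1 clone 4055 and Sparc clone 6518. With only the 10 young mice in the fit no clone passed, and the adjusted p was 0.170 for both Col1a2 clone 15060 and Col2a1 clone 4055, at differences of -0.543 and -0.488. Without the male of 17 d neither clone passed, at -0.466 (adjusted p = 0.0522) for Col1a2 and -0.416 (0.271) for Col2a1. The Col2a1 call was also lost without the female of 17 d (-0.499, adjusted p = 0.0585), the male of 19 d (-0.497, 0.0652), the male of 43 d (-0.431, 0.141) or the male of 44 d (-0.443, 0.141), while Sparc clone 6518 passed without the female of 40 d (-0.445, 0.0171).

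Over the 10 young mice, the scores of these 3 clones went down with age in days. Pearson r with age was -0.856 for Col1a2 clone 15060, -0.874 for Col2a1 and -0.797 for Sparc clone 6518, as a description, since the ages form 2 clusters. Between the clones, r over the same 10 mice was 0.972 for Col1a2 15060 with Col2a1, 0.946 for Col1a2 15060 with Sparc 6518 and 0.968 for Col2a1 with Sparc 6518. These are descriptions too, since the clones share the step between the 2 clusters. With age class and sex removed, r over all 40 mice was 0.501, 0.401 and 0.667 for the same pairs.

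**Figure D2:**
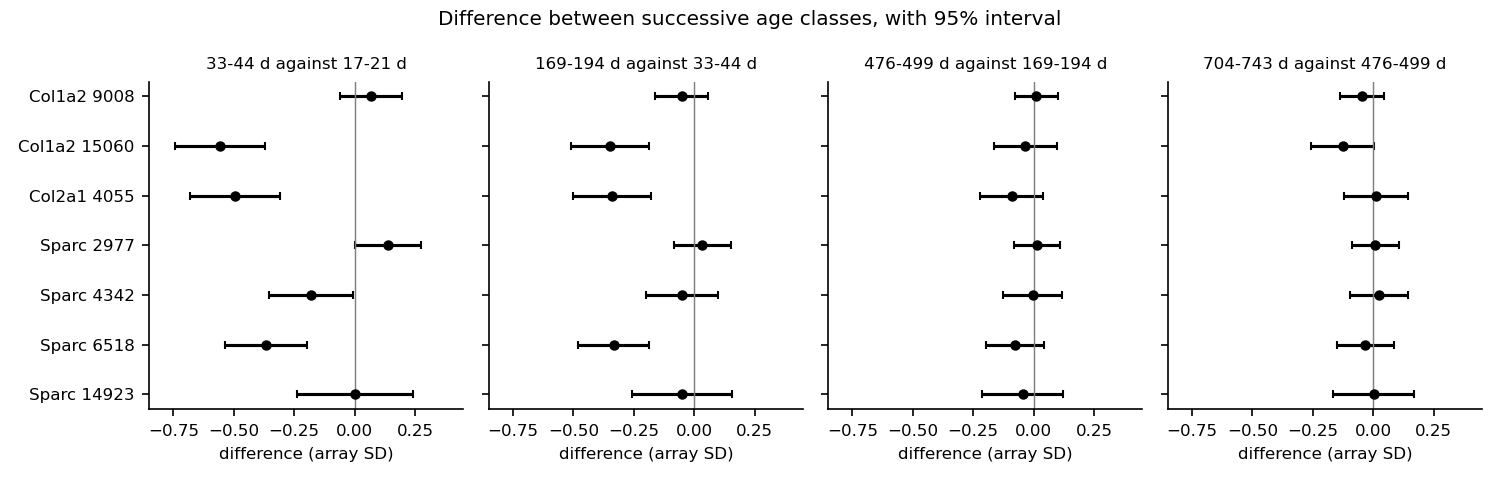
Estimated difference between each age class and the one before it (array SD, points) with its 95% interval (bars) for the 7 clones, from the fit of 40 mice; negative values are lower in the older class. Col1a2 15060, Col2a1 4055 and Sparc 6518 lie left of 0 in the first 2 panels (-0.557, -0.496 and -0.367, then -0.350, -0.340 and -0.333), and every interval reaches 0 in the last 2.

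From 33-44 d to 169-194 d the same 3 clones differed by -0.350 ± 0.0795, -0.340 ± 0.0796 and -0.333 ± 0.0727 array SD (SE). These values are part of the contrast that chose the clones. Over all clones this comparison called 0 of 16896 (0%), with 543 (3.21%) at an unadjusted p under 0.05.

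In the choosing contrast itself, 169-194 d against 17-44 d, the differences were -0.628 ± 0.0648 for Col1a2 15060, -0.588 ± 0.0649 for Col2a1 and -0.516 ± 0.0592 for Sparc 6518 (SE). They ranked 7, 10 and 27 from the lowest among the 16896 clones. The members of the same genes outside this group were Sparc 4342 at -0.142, Sparc 14923 at -0.051, Col1a2 9008 at -0.017 and Sparc 2977 at 0.103. The female change minus the male change was -0.0955 ± 0.110 for Col1a2 15060, -0.0663 ± 0.121 for Col2a1 and -0.0232 ± 0.114 for Sparc 6518 (SE). This comparison was added after the data were examined and is a description, since the same mice entered the choice. It pools the young classes, between which the means fell further in males. From 17-21 d to 33-44 d Col1a2 15060 went from 0.510 to 0.285 in females (n = 3 and 2) and from 0.790 to -0.070 in males (n = 2 and 3). Col2a1 went from 0.647 to 0.435 and from 0.905 to 0.140, and Sparc 6518 from 0.720 to 0.585 and from 0.970 to 0.377. A difference between the sexes in this step was not tested.

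Col1a2 clone 9008 stayed near the 85.2 percentile of its filter at every age. It scored 1.06, 1.00 and 0.97 in the females of 17, 19 and 21 d and 1.07 in both males, then 1.11 and 1.10 in the females of 33 and 40 d and 1.20, 1.06 and 1.01 in the males of 40, 43 and 44 d. These groups overlap. The difference was 0.0686 ± 0.0632 array SD (SE, limma, adjusted p = 0.481), with a 95% interval from -0.0594 to 0.1965. That of clone 15060, which was among the lowest clones in the choosing contrast, ran from -0.743 to -0.370. The difference between these clones was not tested. Adult medians were 1.035, 1.085 and 1.040, and r between both Col1a2 clones was -0.0863 over the 10 young mice and 0.247 over the 30 adults.

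Sparc clone 2977 was higher in value in the older young mice. It scored 0.76, 0.86 and 0.90 in the females of 17, 19 and 21 d, 0.80 in the male of 19 d and 0.68 in the male of 17 d, which had the highest score for clone 6518. At 33-44 d the scores were 0.84 and 0.94 in the females of 33 and 40 d and 1.07, 0.94 and 0.85 in the males of 40, 43 and 44 d. The difference of 0.139 ± 0.0675 array SD (SE, limma) did not pass (adjusted p = 0.216), and the groups overlap.

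The adult medians of Sparc clone 2977 were 0.985, 0.975 and 0.985. Over the 40 mice this clone correlated at r = -0.834 with the first component of filter B, and with that component in the model its difference from 17-21 d to 169-194 d went from 0.172 to -0.0140 array SD. For the Col1a2 15060, Col2a1 and Sparc 6518 clones the component of the opposite filter gave -0.972, -0.708 and -0.591, against -0.906, -0.836 and -0.699 without it, and their r with the component was 0.366, 0.596 and 0.570.

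Sparc clone 4342 went the way of clone 6518 on a smaller scale. It scored -0.45, -0.64 and -0.33 in the females of 17, 19 and 21 d and -0.46 and -0.26 in the males of 19 and 17 d. At 33-44 d it scored -0.57 and -0.40 in the females of 33 and 40 d and -0.62, -0.67 and -0.73 in the males of 40, 43 and 44 d. The difference of -0.181 ± 0.0852 array SD (SE, limma) did not pass (adjusted p = 0.209) and the groups overlap. Over the young mice r between these Sparc clones was 0.856, and over the 30 adults it was -0.169.

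Sparc clone 14923 stood near the 86.8 percentile of its filter in all classes. At 17-21 d it scored between 1.14 and 1.31, and at 33-44 d between 1.03 and 1.37, with class means of 1.200 and 1.216. The fitted difference was 5.05e-04 ± 0.118 array SD (SE, limma, adjusted p = 0.998), with a 95% interval from -0.239 to 0.240. This clone had the widest residual SD of the 7, 0.194 array SD. Over 40 mice r of Sparc clone 6518 was -0.623 with 2977 and 0.468 with 4342, on the same filter, and 0.0579 with 14923, on the other.

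**Figure D3:**
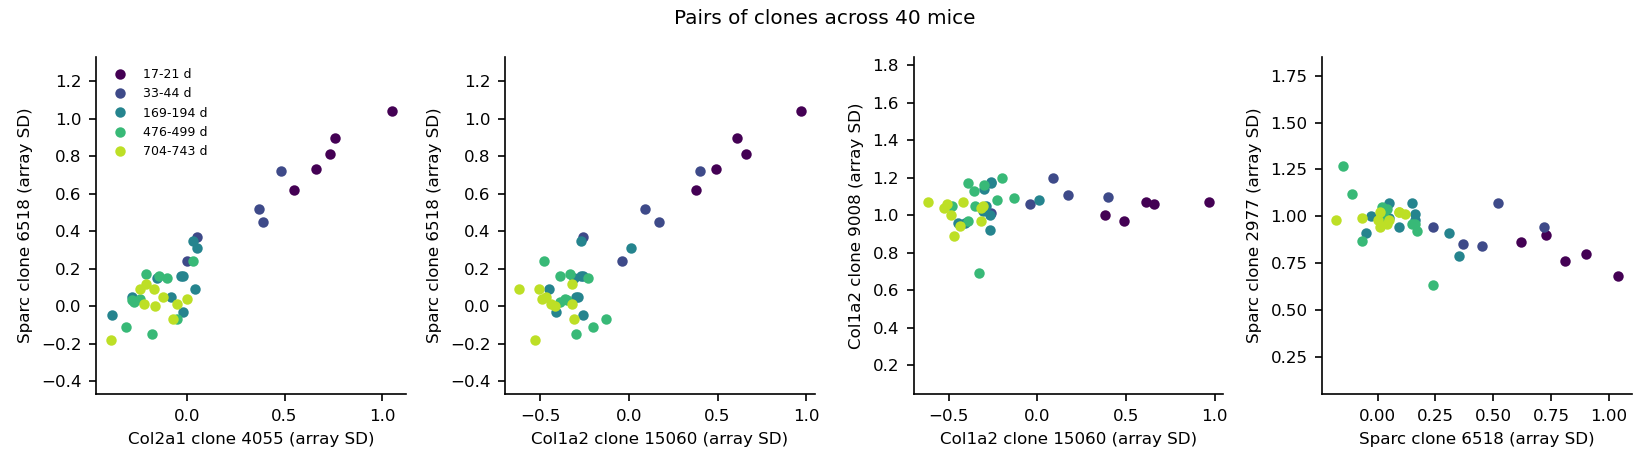
Scores of pairs of clones (array SD on both axes) in 40 mice, coloured by age class. Col2a1 with Sparc 6518 and Col1a2 15060 with Sparc 6518 form a rising band through the young mice (r = 0.968 and 0.946 over 10 mice) above a cluster of adults, whereas Col1a2 9008 is level against Col1a2 15060 and Sparc 2977 runs against Sparc 6518.

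Over the 30 mice from 169 d on, r was 0.545 for Col2a1 with Sparc clone 6518, both on filter A, 0.166 for Col1a2 15060 with Col2a1 and 0.189 for Col1a2 15060 with Sparc 6518. These are descriptions, since 10 of these mice, those of 169-194 d, entered the choice of the clones. In the 20 mice from 476 d on, which did not enter it, none of the 3 pairs passed (permutation, two-sided, a test added after the data were examined). Col2a1 with Sparc 6518 gave r = 0.390 (permutation p = 0.0894, adjusted over 3 pairs 0.268; rho = 0.277, p = 0.232, adjusted 0.407). That r became -0.00357 without the 2 mice farthest from the median of Col2a1, a removal that also narrows the range of Col2a1. It was 0.0764 with the first component of the opposite filter removed. Col1a2 15060 gave r = 0.0370 with Col2a1 (permutation p = 0.880, adjusted 0.880; rho = -0.0132, p = 0.955, adjusted 0.955), -0.215 without 2 mice and 0.408 with the component removed. With Sparc 6518 it gave r = -0.223 (permutation p = 0.346, adjusted 0.519; rho = -0.257, p = 0.271, adjusted 0.407), -0.0896 without 2 mice and -0.0108 with the component removed.

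No member passed between 476-499 d and 704-743 d, a comparison of mice that the choice did not use. It called 0 of 16896 clones (0%), with 1392 (8.24%) at an unadjusted p under 0.05 (limma). The widest difference was that of Col1a2 clone 15060, -0.127 ± 0.0648 array SD (SE, adjusted p = 0.532), with 9 of 10 older mice below the mean of the younger class. Its 95% interval ran from -0.258 to 0.0041. Without the male of 714 d whose labels differ the difference was -0.128 (adjusted p = 0.470), and still no member passed. The other 6 clones differed by -0.046 to 0.024, with adjusted p from 0.628 to 0.993.

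From 169-194 d to 476-499 d the 7 clones differed by -0.091 (Col2a1) to 0.014 (Sparc 2977) array SD, as a description. Over all clones that comparison called 0 (0%), with 130 (0.769%) at an unadjusted p under 0.05. The ranges of neighbouring adult classes overlapped for all 7 clones.

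No member passed between females and males in the fit over all classes, which called 0 of 16896 clones (0%), with 1497 (8.86%) at an unadjusted p under 0.05 (limma). The differences, females minus males, ran from -0.0775 array SD for Sparc 14923 to 0.0539 for Sparc 2977, with adjusted p from 0.501 to 0.840. For Col1a2 15060 the difference was -0.0333 ± 0.0461, for Col2a1 -0.0208 ± 0.0461 and for Sparc 6518 -0.0343 ± 0.0421 (SE).

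Clones whose scores went most like those of the members over the 40 mice were ranked by Pearson r within the filter, as a description, since arrays and age are shared. Of the named clones, Sparc 6518 came first for Col2a1 and Col2a1 first for Sparc 6518 (r = 0.940), the next clone standing at 0.749 for Col2a1 and 0.727 for Sparc. After it came Esrp1 (0.692), a splicing factor, and Prps1 (0.660), an enzyme of nucleotide synthesis, for Col2a1, and Prps1 (0.654) and Dbt (0.631), a subunit of the branched-chain keto acid dehydrogenase, for Sparc. Between them stood 3 clones without a single symbol for Col2a1 and 5 for Sparc. For Col1a2 15060 the order was clone 15082 without a single symbol (0.947), then Clca3a1 (0.912), of the chloride channel accessory family, Ppox (0.814), a heme synthesis enzyme, clone 14884 without a single symbol (0.792), and Bnip3 (0.792), a mitophagy receptor.

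Of these clones, 15082 is 22 numbers from Col1a2 15060, Clca3a1 is 44, and Ppox and Bnip3 are 528, which are among the distances used for neighbours. Clone 14884 (offset -176), clone 14617 (r = 0.768, offset -443), clone 15126 (0.728, offset 66) and Hba-a1 12506 (0.706, offset -2554) do not lie at those distances. They were also among the 10 most alike and were named after their values were seen. The offsets of clones 14884 and 15126 are multiples of 22, and residuals 66 numbers apart on filter B correlated at a mean r of 0.329. All of the other 4 clones called between 17-21 d and 33-44 d lie within 44 numbers of Col1a2 15060. Those are Clca3a1 (-0.246, adjusted p = 0.0400, limma), clone 15082 (-0.405, 0.0480) and a pair of clones of H19, an imprinted noncoding RNA abundant before birth, 15040 (-0.354, 0.0112) and 15084 (-0.285, 0.0321), which were named after their values were seen. The H19 clones are 20 numbers before and 24 after Col1a2 15060, and were also among the 10 most alike (r = 0.779 and 0.685). Leaving out 1 of the 40 mice at a time lost the call of clone 15082 in 33 cases, of Clca3a1 in 19, of H19 15084 in 7 and of H19 15040 in 4.

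Subtracting the mean of the 4 clones at 22 and 528 numbers before and after changed the size for Col1a2 15060 from -0.906 to -0.558 array SD between 17-21 d and 169-194 d, and from -0.557 to -0.277 (limma, adjusted p = 0.0480) within the young mice. For Col2a1 the latter went from -0.496 to -0.358 (adjusted p = 0.164), and for Sparc 6518 from -0.367 to -0.386 (0.0480). This setting was added after the data were examined. The young mice entered the choice of these clones, so the adjusted p are not those of clones chosen on other mice.

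Of the 8 neighbours by number of each clone, those of Col1a2 15060 differed by -0.483 to 0.134 array SD between 17-44 d and 169-194 d (median -0.0645). For Col2a1 the neighbours lay between -0.171 and 0.326 (median -0.0905, 7 of 8 lower in value), and for Sparc 6518 between -0.052 and 0.225 (median 0.0575, 2 of 8 lower). The 3 clones themselves, chosen for low values in this contrast, stood at -0.628, -0.588 and -0.516. Whether signal from adjoining spots enters the scores was not tested.

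**Figure D4:**
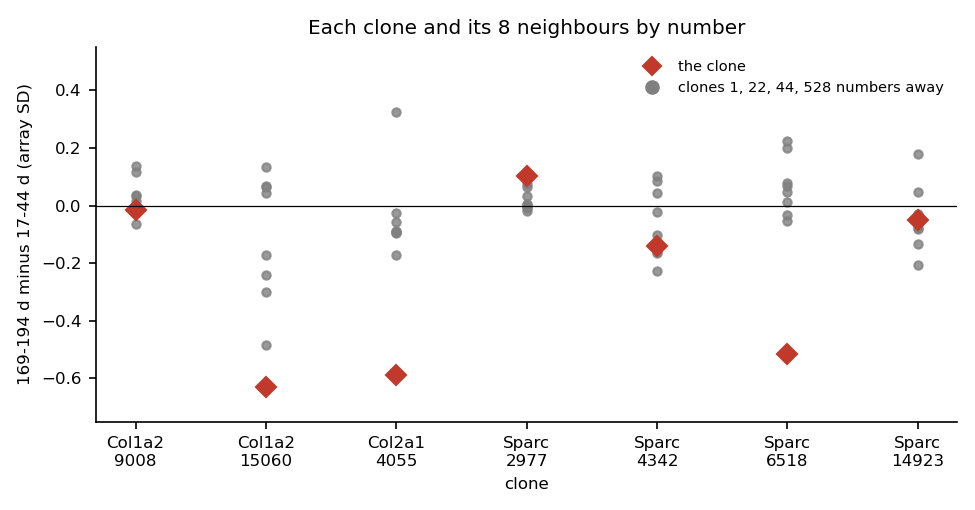
Difference between 169-194 d and 17-44 d (array SD) of each of the 7 clones (red diamonds) and of the 8 clones 1, 22, 44 and 528 numbers away on the same filter (grey points). Col1a2 15060, Col2a1 4055 and Sparc 6518, chosen for low values here, stand at -0.628, -0.588 and -0.516, and the lowest neighbour of Col1a2 15060 at -0.483.

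Other genes of collagen fibrils and matrix were read from lists of the pathway. Between 17-21 d and 169-194 d the fit called 39.7% of all clones, 18.9% higher and 20.8% lower at 169-194 d, with a median over all clones of 0.0125 array SD. Of the lists described next, 10 clones rose and 4 fell of the 56 that are no members, so both shares lie near or under this background. Single mice moved the first of these counts: without the female of 19 d 5 rose, without the male of 19 d 6, and without the male of 194 d 5. With the first component of the opposite filter in the model 0 rose and 0 fell.

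Of 9 other fibrillar collagen genes 5 were measured, by 9 clones, of which 2 rose, 0 fell and 7 did not pass (median 0.0911). Col3a1, which forms thin fibrils with type I collagen, rose in 1 of its 4 clones (15582, 0.215, limma, adjusted p = 0.0258), and Col5a3, a regulator of fibril width, rose by 0.228 (0.0218). Col1a1, the partner chain of Col1a2 in type I collagen, did not pass, at 0.0214 ± 0.0531 array SD (SE, adjusted p = 0.758).

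Of 27 genes that modify, fold, trim or crosslink collagen 14 were measured, by 17 clones, of which 3 rose, 2 fell and 12 did not pass (median 0.0618). Bmp1, the protease that trims procollagen, rose in 1 of 2 clones (0.409, limma, adjusted p = 0.0040), as did P4ha2, a prolyl hydroxylase subunit (0.285, 0.0137), and Loxl3, a crosslinking enzyme (0.317, 0.0230), whose clone stood at the 1.90 percentile of its filter. P3h3, a prolyl 3-hydroxylase family member, fell by 0.242 (0.0152), and Crtap, its relative, fell by 0.235 in 1 of 2 clones (0.0375). The Crtap call was lost in 8 of 40 removals of 1 mouse (adjusted p up to 0.0905), and its value was 0.0744 with the component.

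Of 7 other genes of the Sparc family 5 were measured, by 5 clones, and Smoc1, a calcium-binding matricellular protein, fell by 0.314 array SD (limma, adjusted p = 0.0092). The other 4 did not pass, among them Sparcl1, the nearest relative of Sparc, at -0.132 (0.106). Of 26 non-fibrillar collagen genes 10 were measured, by 13 clones, of which 3 rose, 1 fell and 9 did not pass (median 0.0664). Col22a1, of the muscle-tendon junction, rose by 0.518 (0.0391; the call was lost in 6 of 40 removals of 1 mouse, and the value was -0.0934 with the component), Col4a5 by 0.356 (0.0114) and Col4a1 by 0.186 (0.0291), both of basement membranes, and Col6a1, of the fine filaments around fibres, fell by 0.332 (0.0087).

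Among proteoglycans and other fibril partners 4 of 17 genes were measured, by 5 clones, and 1 rose, Bgn (biglycan), by 0.146 array SD at the edge of the threshold, a call lost in 24 of 40 removals of 1 mouse. Among genes of matrix degradation 5 of 14 were measured, by 7 clones, and 1 rose, Mmp2, a gelatinase (0.171, limma, adjusted p = 0.0440), a call lost in 9 of 40 removals. None of the list clones that are no members passed between 17-21 d and 33-44 d or in the adult and sex comparisons described above, which called 0.0355% and 0% of all clones.

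Cell type markers were set beside these values, since in whole tissue fewer cells of a type and less RNA per cell cannot be told apart. Between 17-21 d and 169-194 d 18.9% of all clones were called higher and 20.8% lower, so single marker calls are not set apart from this background. Of 14 cartilage genes other than Col2a1 2 were measured: Hapln1, a cartilage link protein, fell between 17-21 d and 169-194 d by 0.379 array SD (limma, adjusted p = 0.0092), and Col9a3 did not pass (-0.103, 0.0879). Their clones stood at the 20.9 and 39.6 percentiles, and their mean score ranged from -0.400 to -0.270 at 17-21 d, from -0.610 to -0.380 at 33-44 d and from -0.675 to -0.355 at 169-194 d. Neither clone passed between 17-21 d and 33-44 d, the step in which Col2a1 did (Hapln1 -0.240, adjusted p = 0.218; Col9a3 -0.0558, 0.528; limma). The part of cartilage in the Col2a1 result was not tested.

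Of 10 fibroblast genes 4 were measured by 8 clones, 1 of which rose (Col3a1 15582) and 0 fell. The mean of these clones was 0.237 at 17-21 d and 0.293 at 169-194 d, ranging over the mice from 0.198 to 0.289 and from 0.208 to 0.374. The lone bone marker measured, Alpl of 10 genes, differed by 0.0042 (limma, adjusted p = 0.963). Of the 6 genes of the tendon list only Egr1 was measured, at -0.200 (0.101), so no other tendon gene could be read. Egr1 ranged from -0.69 to -0.42 at 17-21 d and from -0.97 to -0.36 at 169-194 d.

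Of 14 muscle fibre genes Mylpf fell by 0.416 array SD (limma, adjusted p = 0.0091) and Actn3 did not pass (-0.237, 0.0759). Their mean ranged from 1.395 to 1.585 at 17-21 d and from 0.910 to 1.680 at 169-194 d. Of 6 adipocyte genes Lpl, a lipase that muscle also makes, fell by 0.169 (0.0453; the call was lost in 12 of 40 removals of 1 mouse, and the value was 0.0588 with the component). Of 8 blood genes 4 were measured by 18 clones, of which 2 fell and 0 rose. The part of these cell types in the course of the 3 clones was not tested.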

How the data were processed

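The authors deposited 1 table per filter with a score per clone and array (a z-score); the values were tested and have a mean of 0 and an SD of 1 in each array. Per the labels' protocols, total RNA was extracted with a column kit and labelled with 33P by reverse transcription. Image quantification, background and the log base are not stated in the sources at hand. The scores do not show signal over background, so precision rests on how many arrays there are.

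Clones were named by the platform annotation: 9663 have 1 symbol, 436 several and 6797 none, and 9641 matched RefSeq (GRCm38.p6) by gene identifier. All clones were fitted per filter with limma 3.58.1 in R 4.3.3 (lmFit, eBayes, two-sided) on 5 age classes and sex over 40 separate mice, with Benjamini-Hochberg adjustment over all 16896 clones, with a threshold of 0.05. The test was tried on simulated data. Correlations between clones in the 20 mice from 476 d used 100000 permutations.

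The members, lists and tests were chosen with earlier results of these data known. Named genes were all member clones, the 3 named clones most like each falling clone, up to 3 list clones per direction past the threshold, and the markers. Other settings were a model of 10 groups by age and sex, only the classes compared, quantile normalization, median and MAD scaling, a block for the 5 stretches of list numbers in the titles, array weights, the first principal component of the opposite filter, a trended robust prior, no dim clones (the lowest 25%), each mouse left out, and, added after the data were examined, subtraction of neighbouring clones. Further additions of that kind were the sex difference in the change, the correlations within young and adult mice, the permutation test of 3 pairs of clones in the 20 mice from 476 d, and the settings applied to list clones.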

Additional observations from a re-analysis of the deposited data

Results flagged for a closer look

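In 2 of the 35 clone and age class combinations 1 mouse stood apart from the others of its class, where chance gives about 1 in 20. Col1a2 clone 9008 scored 0.69 in a male of 498 d, the next lowest of the 10 mice of 476-499 d being at 0.97. The same mouse was inside the range of its class for Col1a2 clone 15060, at -0.33. Col1a2 clone 15060 scored 0.01 in a male of 180 d, the next highest of the 10 mice of 169-194 d being at -0.26, and that mouse also had scores of 0.05 for Col2a1 and 0.31 for Sparc clone 6518.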

How the results depend on the processing

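Between 17-21 d and 33-44 d the count of member clones past the threshold was 2, and it became 0 with only the classes compared, 1 with median and MAD scaling and 1 with the component of the other filter; leaving out 1 mouse at a time gave 0 to 3. Over all clones the count of 6 became 0, 2 and 1 under those settings and 52 with array weights. Col1a2 clone 15060 stood at -0.543 with only the classes compared (limma, adjusted p = 0.170; range -0.653 to -0.466 without 1 mouse). Col2a1 stood at -0.488 (0.170) with only the classes compared, -0.449 (0.0649) with MAD scaling, -0.405 (0.205) with the component and -0.358 (0.164) with neighbours subtracted, and at -0.561 to -0.416 without 1 mouse. Sparc 6518 passed with array weights (-0.362, 0.0404) and with neighbours subtracted (-0.386, 0.0480), and ranged from -0.445 to -0.310 without 1 mouse. The young mice entered the choice of these clones, so a call gained in a setting is a description. The causes were not tested.

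Among the tested differences of member clones, those whose signs turned had not passed. Within the young mice these were Col1a2 9008 with neighbours subtracted (-0.0445) and Sparc 14923 with quantile normalization (-0.0387), with the component (-0.103) and without 1 mouse (-0.0552 to 0.0536). Between 476-499 d and 704-743 d they were Col1a2 9008 with neighbours subtracted (0.0175), Col2a1 with quantile normalization (-0.0032), MAD scaling (-0.0053), the component (-0.0314), neighbours subtracted (-0.062) and without 1 mouse (-0.0078 to 0.0368), Sparc 2977 with quantile normalization (-0.0146), MAD scaling (-0.053) and without 1 mouse (-0.028 to 0.039), Sparc 4342 with neighbours subtracted (-0.0925), and Sparc 14923 with MAD scaling (-0.0364), neighbours subtracted (-0.0217) and without 1 mouse (-0.0508 to 0.0491). Between the sexes they were, with neighbours subtracted, Col1a2 9008 (-0.0023), Col1a2 15060 (0.0098) and Sparc 4342 (0.0263), and Col2a1 with the component (0.0109) and without 1 mouse (-0.0394 to 0.002).

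In the descriptive contrasts, Sparc 2977 turned with the component (0.172 to -0.0140 against 17-21 d, 0.103 to -0.0172 against 17-44 d), as did Col1a2 9008 against 17-21 d (0.0173 to -0.0812; -0.0020 to 0.0323 without 1 mouse), and other members whose values lay near 0 also changed sign in some settings. Subtracting neighbours gave -0.558 for Col1a2 15060 and -0.655 for Col2a1 against 17-21 d, and -0.420 for Col1a2 15060 against 17-44 d. With the component, 1 of the 3 named clones most like Col2a1 was kept, and 1 of the 3 most like Sparc 6518. List clones between 17-21 d and 169-194 d numbered 20 higher and 9 lower with array weights and 0 and 0 with the component, and without 1 mouse 5 to 12 rose and 3 to 6 fell. Over all clones this comparison called 6708, against 10106 with array weights and 9 with the component, and 3639 without the female of 19 d. With the component, Lpl (0.0588), Col22a1 (-0.0934) and Crtap (0.0744) changed sign. The choosing contrast called 16 clones (0.0947%), against 3489 with only the classes compared, 7956 with array weights and 2215 with the list-number block. The block changed no member's call. No paired analysis was possible because replicate numbers were given in accession order and pair no mice.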
